A study of Mus musculus with 10 samples.

Results

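The transcriptome of the mouse trigeminal ganglion was compared between sham surgery and the surgery that the labels call pIONT, on day 10 after the operation. In this field the abbreviation stands for partial transection of the infraorbital nerve, a model of facial neuropathic pain, although the labels do not spell it out. Members were the genes with a mean of at least 0.5 FPKM (a read count divided by gene length and by depth) over the 6 libraries, which left 14672 of 26411 genes. The groups were 3 sham libraries and 3 pIONT libraries, and strain, genotype, sex, age and pooling are not given in the labels. The operated side of the dissected ganglion is also not given. Nothing in the labels says that libraries came from separate animals, so p-values rest on a spread that may be technical only.

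The trigeminal ganglion holds the cell bodies of the sensory neurons of the face, each wrapped by satellite glia, with axons ensheathed by Schwann cells. The infraorbital nerve is the branch of the maxillary division that serves the whisker pad and upper lip. A sensory neuron whose axon is cut switches off part of its mature programme, such as ion channels and transmitter release, and switches on transcription factors, peptides and growth proteins linked to survival and regrowth. Resident and recruited macrophages and glia respond to signals from the injured neurons. A whole ganglion mixes cut and spared neurons with these other cells, and in such bulk RNA fewer cells of a type and less RNA per cell cannot be told apart.

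The tissue label was checked against defining markers. The neuronal tubulin Tubb3 stood at 1125 to 2255 FPKM over the 6 libraries, the Schwann cell myelin gene Mbp at 338 to 505 and the satellite glia gene Fabp7 at 350 to 408. Depth, rebuilt from the steps between low values, was 24.2 to 28.7 M reads in genes in sham and 25.6 to 29.7 M in pIONT, where M is mega. Sham 1 stood apart by RNA of neighbouring tissue, where Pomc, a pituitary hormone gene, reached 158 FPKM, compared with 1.08 in sham 2 and 2.49 in sham 3. pIONT 2 stood apart by myeloid and matrix RNA, with Lyz2, a lysozyme gene of macrophages chosen after its values were seen, at 449 FPKM against 164 and 142. Many results below are therefore also given without sham 1, sham 3 or pIONT 2.

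Of the 14672 genes, 1537 were higher and 1807 lower in pIONT at a limma adjusted p under 0.05, and such genes are said below to be called. That is 22.8% of genes tested, 10.5% higher and 12.3% lower, and each class below is read against these shares. No class was matched for level. The called share grew with level, from 11.3% in the lowest of 5 bins of equal size to 35.8% in the highest, so the shares are a rough guide for classes of high or low level. Groups of libraries did not overlap in 43.4% of genes tested, called or not, and in 1536 of the 1537 and 1806 of the 1807 called genes. Of the genes tested, 293 passed the filter only through their pIONT level, with 115 called higher and 0 lower, and 190 only through their sham level, with 28 called lower and 0 higher, so the filter bears on the direction of these calls. Increases reached further than decreases. At least 2-fold changes were held by 220 genes called higher and 17 called lower, and at least 4-fold changes by 50 and 1. The median called gene moved by 1.34-fold up or 1.25-fold down, and 87.2% of genes called lower changed by under 1.5-fold. Folds are on the scale log2(FPKM + 0.5), which understates changes of low genes. pIONT 2 was the highest library in 1053 of the 1537 genes called higher (68.5%) and the lowest in 1408 of the 1807 called lower (77.9%), while pIONT 3 was the least changed in 940 and 1089. The part of this gradient in the calls was not tested. Without sham 1 and pIONT 2, 902 genes were higher and 758 lower. Without sham 3 they were 912 and 757, without sham 1 1193 and 1042, and without sham 2 1079 and 982.

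**Figure D1:**
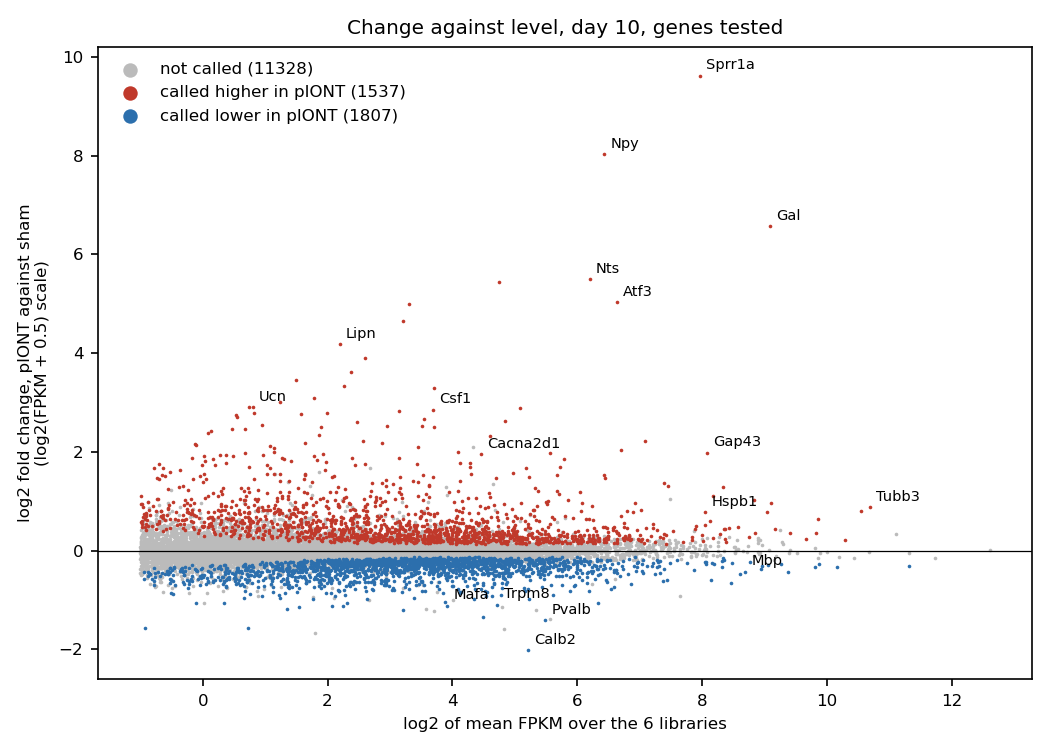
Log2 fold change (vertical axis, log2(FPKM + 0.5) scale) against the log2 of the mean FPKM over the 6 libraries (horizontal axis) for the 14672 genes tested, with genes called higher in red, called lower in blue and the rest in grey. Increases spread up to 9.62, while decreases end at -2.02.

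The 20 largest increases joined peptides, secreted factors, receptors and structural proteins. Sprr1a, a small proline-rich protein first known from skin and made by injured sensory neurons, had 0.136, 0.216 and 0.0515 FPKM in sham 1 to 3 and 532, 560 and 407 FPKM in pIONT 1 to 3. It lies on chromosome 3 at 92391259 to 92393202 in the coordinates of the table, for which the submitters' processing notes name GRCm39. The groups lay far apart and the 3 pIONT libraries were close to each other. Below the 10 genes at the top came Cckbr, a cholecystokinin receptor, at 0.319, 0.292 and 0.420 FPKM in sham and 11.96, 11.17 and 6.92 in pIONT. This was 3.61 on the log2 scale (SE 0.19, limma adjusted p = 8.65e-05). Fgf3, a fibroblast growth factor, had 0.612, 0.314 and 0.428 FPKM in sham against 9.85, 9.88 and 7.65 in pIONT, a log2 fold change of 3.34 (limma adjusted p = 3.27e-05). Flrt3, a membrane protein that binds fibroblast growth factor receptors and guidance receptors, moved from 2.03 ± 0.320 to 24.2 ± 2.63 FPKM (SD, n = 3). In all 3 the lowest pIONT library was pIONT 3, still many times the highest sham library. Sprr1a, Cckbr and Fgf3 passed the filter only through their pIONT level, so the filter bears on the direction of their calls.

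The other genes of that group were diverse in function. Cyp4b1, a cytochrome P450, rose by 3.09 on the log2 scale, the tubulin Tubb6 by 2.89, the macrophage growth factor Csf1 by 2.85, Ifi202b of the interferon-inducible p200 family by 2.82 and the collagen cross-linking enzyme Loxl2 by 2.78. Their limma adjusted p ran from 2.92e-05 to 0.00255. Ifi202b had the widest spread, with 3.05, 1.09 and 1.47 FPKM in sham and 11.5, 22.1 and 13.8 in pIONT. Anxa10, an annexin, and Ucn, which encodes the peptide urocortin 1, were almost silent in sham. Anxa10 was counted with 1 read over the sham libraries and 639 over the pIONT libraries, a ratio of read rates of 607 (95% exact interval 109 to 24028, counting error only). For Ucn it was 1 and 148 reads, a ratio of 141 (24.9 to 5594). Cyp4b1, Anxa10 and Ucn passed the filter only through their pIONT level.

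Promoter sequence was read for genes of this group from RefSeq (GRCm38.p6), as the 250 bases before the annotated start. A pair of motifs was searched on both strands, the AP-1 motif TGACTCA, whose letters on the opposite strand read TGAGTCA, bound by Jun and Fos family dimers, and the palindromic cAMP response element TGACGTCA, which binds CREB and ATF family dimers. Neither motif contains the other. The AP-1 motif stood in 4.01% of the 10947 tested genes with a promoter in the table, in 5.65% of the 1132 called higher, in 4.67% of the 1369 called lower and in 12.7% (19 of 150) of those called higher by at least 2-fold. The cAMP response element stood in 2.94% of tested genes and in 1 of those 150. Of 27025 genes with a promoter in the table, 5.16% held the first and 1.77% the second. Of the 16 promoters of the 20 largest increases, 4 held the AP-1 motif (Sprr1a, Nts, Lipn and Anxa10) and 1 the cAMP response element (Ucn). Sequences are printed for 4 of the promoters that hold a match and were chosen for holding it, with that of Lipn left out. They are given 5′ to 3′ on the strand of the gene, with motif matches in capitals. They lie at chr3:92485882-92486131 (minus strand, Sprr1a), chr10:102490419-102490668 (minus, Nts), chr8:62123194-62123443 (minus, Anxa10) and chr5:31138896-31139145 (minus, Ucn).
Sprr1a: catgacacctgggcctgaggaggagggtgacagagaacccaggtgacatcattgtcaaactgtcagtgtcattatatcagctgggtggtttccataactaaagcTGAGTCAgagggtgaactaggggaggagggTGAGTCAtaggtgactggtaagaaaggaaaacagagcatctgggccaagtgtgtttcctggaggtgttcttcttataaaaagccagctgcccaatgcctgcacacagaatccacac
Nts: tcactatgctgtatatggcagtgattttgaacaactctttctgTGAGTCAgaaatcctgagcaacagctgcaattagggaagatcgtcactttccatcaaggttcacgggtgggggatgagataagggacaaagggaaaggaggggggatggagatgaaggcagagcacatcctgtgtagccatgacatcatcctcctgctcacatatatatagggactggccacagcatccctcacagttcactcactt
Anxa10: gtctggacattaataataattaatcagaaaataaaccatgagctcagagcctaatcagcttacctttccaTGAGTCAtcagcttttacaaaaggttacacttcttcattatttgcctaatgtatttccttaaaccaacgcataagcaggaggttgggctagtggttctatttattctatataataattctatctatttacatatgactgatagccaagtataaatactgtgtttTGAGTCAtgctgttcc
Ucn: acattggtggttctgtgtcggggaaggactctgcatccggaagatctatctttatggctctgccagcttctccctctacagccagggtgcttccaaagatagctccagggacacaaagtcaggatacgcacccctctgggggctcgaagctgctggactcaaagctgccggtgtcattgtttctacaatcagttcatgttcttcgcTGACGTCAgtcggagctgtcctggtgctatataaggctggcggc
Counted from the start, the first match begins at -146 in Sprr1a, -207 in Nts, -180 in Anxa10 and -44 in Ucn. Sprr1a and Anxa10 hold 2 matches each. No match was found in these windows of Npy, Gal, Atf3 or Csf1, which says only that the letters are not in the 250 bases. A match is a description of sequence and not a site shown to be used.

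Neuropeptides changed in both directions. Of 28 tested genes of peptides and their precursors 9 rose and 6 fell, and leaving out any 1 library left 9 or 10 higher and 4 to 8 lower. Adcyap1, the precursor of the peptide PACAP, rose from 15.4 ± 0.493 to 47.2 ± 6.60 FPKM (± SD of 3 libraries), equal to a log2 change of 1.58 (limma adjusted p = 0.000165). The increases with Npy, Gal and Nts also held genes barely detected in sham, which were chosen here after their values were seen. Grp, the gastrin-releasing peptide of itch circuits, went from a mean of 0.132 to 3.07 FPKM and Penk, the enkephalin precursor, from 0.840 to 5.37. Npy, Ucn and Grp passed the filter only through their pIONT level. Vgf, a secreted granule protein cut into peptides, was abundant already and went from 44.0 to 128 FPKM. Of the decreases, Chga, the granule protein chromogranin A, fell by 0.64 (limma adjusted p = 0.0041). The 2 classical pain peptides of the ganglion did not pass, with Calca, which encodes CGRP, at means of 314 and 291 FPKM and Tac1, which encodes substance P, at 60.6 and 52.0 (limma adjusted p = 0.355 and 0.0879). Of 13 tested peptide processing and secretion genes 1 rose and 3 fell. The granule membrane protein Ptprn rose by 0.25, and the vesicle priming proteins Cadps and Cadps2 and the convertase Pcsk2 fell by 0.33, 0.35 and 0.29 (limma adjusted p = 0.00668 to 0.0421). The call of Cadps2 was lost without sham 1 or pIONT 2 (limma adjusted p = 0.119 and 0.0996), among others, and held in 7 of 17 alternatives.

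Transcription factors of the injury response stood at one end of the classes and those of neuronal identity near the other. Of 21 tested injury factors 13 rose and 0 fell, with a median log2 fold change of 0.40 against -0.02 over all genes. Leaving out any 1 library left 13 or 14 of them higher. The count was 10 without sham 1 and pIONT 2 and 12 with a replicate block. Atf3, a stress-induced factor of the ATF family, had 5.86, 4.09 and 6.57 FPKM in sham and 190, 227 and 165 in pIONT. Sox11, a factor of embryonic neurons and axon growth, had 1.84, 1.82 and 1.63 FPKM in sham and 9.76, 11.2 and 9.18 in pIONT, 2.22 as log2 fold change (SE 0.08; limma, adjusted p = 2.04e-05). Both genes had no pIONT library near the sham range. Nfil3, a repressor also counted in the circadian clock class, rose by 1.72 and the zinc finger factor Klf6 by 1.00 (limma adjusted p = 0.000347 and 0.00079). Jun, the AP-1 subunit and chosen after its values were seen, went from a mean of 45.4 to 89.3 FPKM.

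Of 19 tested identity factors 12 fell and 1 rose, with a median of -0.29. The one that rose was Klf7, also counted among the injury factors, at 0.40. Isl1, a homeodomain factor that specifies sensory neurons, had 28.2, 26.6 and 29.2 FPKM in sham and 19.0, 19.7 and 21.7 in pIONT (log2 fold change -0.47, limma adjusted p = 0.00386). Prdm12, a factor required for nociceptors, had 55.8, 58.9 and 63.0 FPKM in sham and 44.4, 36.9 and 43.0 in pIONT (-0.51, limma adjusted p = 0.00605). The groups were separate in both genes but the change was small, as in Shox2 at -0.52 and Pou4f3 at -0.44. Without sham 2 or sham 3 the count of lower identity factors was 7 or 5, and without sham 1 and pIONT 2 it was 6.

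Growth factors and cytokines, a list that also holds the membrane protein Flrt3, were a further class with more increases than the background. Of 28 tested 13 rose and 2 fell, a median of 0.40, and leaving out any 1 library left 10 to 12 higher. Csf1, on chromosome 3 at 107648364 to 107667785, had 3.41, 2.31 and 2.58 FPKM in sham and 24.5, 26.3 and 18.6 in pIONT. Fst, follistatin, which binds activins, had 0.270, 0.326 and 0.398 FPKM in sham and 11.5, 12.9 and 11.2 in pIONT. Inhbb, a subunit of the activins themselves and chosen after its values were seen, went from a mean of 0.481 to 3.76 FPKM. Fst, Fgf3 and Inhbb passed the filter only through their pIONT level, so the filter bears on their direction and on the class count. The 2 decreases were Vegfa at -0.45 and Nrg1, a neuregulin of the axon surface, at -0.39.

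Among 26 tested receptors for growth factors and cytokines 7 rose and 4 fell, and 7 stayed the count of higher genes without any 1 library. The receptors of the glial cell line-derived neurotrophic factor (GDNF) family moved apart. Gfra1, the GDNF co-receptor, had 26.2, 26.2 and 22.2 FPKM in sham and 85.6, 83.8 and 74.2 in pIONT, 1.69 as log2 fold change (SE 0.08; limma, adjusted p = 6.31e-05). Gfra3, the artemin co-receptor, rose by 0.44, and Gfra2, the neurturin co-receptor, fell by 0.41 (limma adjusted p = 0.00658 and 0.0249). Gfra4, the persephin co-receptor, fell by 0.40 and was chosen after seeing its values. Egfr rose by 1.21, the interleukin receptor chain Il13ra1 by 1.18 and the interleukin-1 receptor Il1r1 by 0.83 (limma adjusted p = 0.000518 to 0.00218). The count of lower receptors was 2 without sham 2 or pIONT 2 and 1 without sham 3.

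Genes of the axonal cytoskeleton and of axon growth changed in both directions. Of 45 tested 18 rose and 11 fell. Their median was 0.01, and it was -0.03 on the TPM scale and 0.03 with median-of-ratios scaling, so the class as a whole had no stable direction. Several tubulins and growth proteins rose, while the tubulin Tuba4a, chosen after its values were seen, fell by 0.48. Tubb6, a tubulin of low level in the resting ganglion, had 6.92, 8.96 and 7.32 FPKM in sham and 62.1, 67.2 and 52.1 in pIONT. Gap43, the growth cone protein, had 107, 113 and 105 FPKM in sham and 417, 497 and 380 in pIONT (log2 fold change 1.98, limma adjusted p = 5.5e-05). Stmn2, a tubulin-binding protein of growth cones, rose by 1.28, the adhesion molecule Chl1 by 1.69, Tubb2a by 0.95 and Tuba1a by 0.80 (limma adjusted p = 0.000106 to 0.000745). In the GENCODE vM21 annotation 26.2% of the exon bases of Tuba1a are shared with a predicted gene on the same strand.

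Neurofilaments are the intermediate filaments that fill large axons. Nefh had 714, 773 and 792 FPKM in sham and 580, 518 and 597 in pIONT, a fall by 0.43 (limma adjusted p = 0.00808). Nefm fell by 0.34 and Nefl by 0.28 (limma adjusted p = 0.0178 and 0.0132). Exons of Nefl and Nefm overlap on opposite strands in the GENCODE vM21 annotation, by 32.8% of Nefl bases, so these 2 values may share reads. The count of lower cytoskeletal genes was 7, 5 and 4 without sham 1, sham 2 and sham 3.

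**Figure D2:**
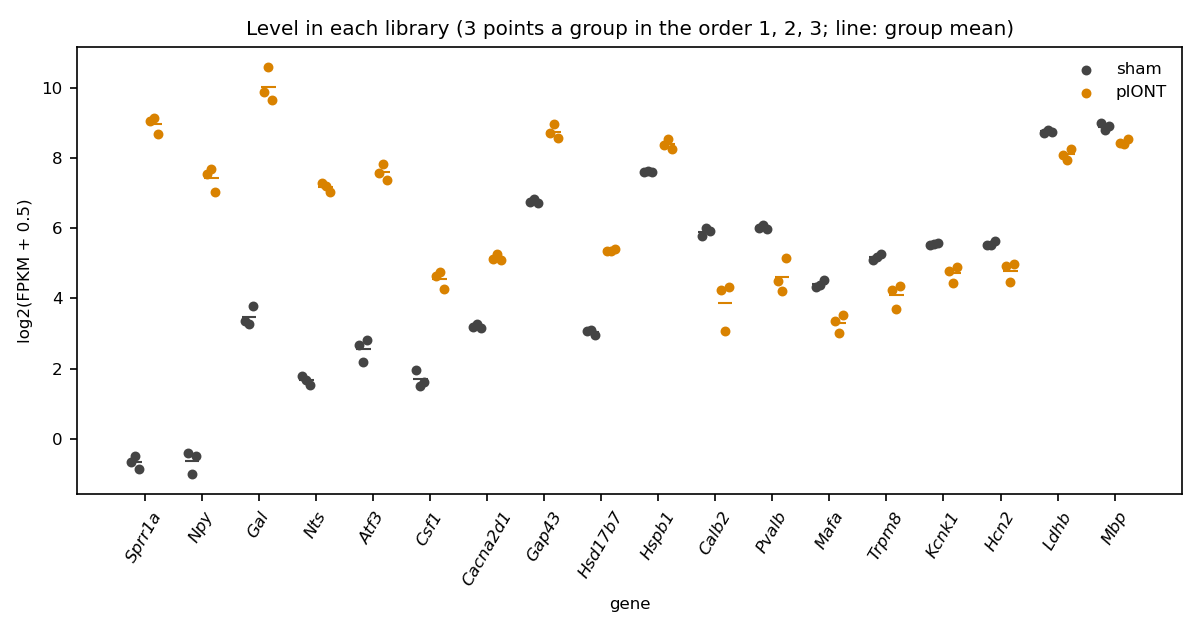
Level of 18 named genes as log2(FPKM + 0.5) (vertical axis) in each library, sham in grey and pIONT in orange, with a short line at each group mean. Increases such as Sprr1a span several log2 units while decreases such as Ldhb and Mbp span under 1, and pIONT 2 is the lowest point of Calb2.

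Large-diameter neurons carry touch through thick myelinated axons and are known for parvalbumin, calretinin and neurofilaments. Of 20 tested genes of this class 16 fell and 1 rose, with a median of -0.42, the lowest among the neuronal classes. Calb2, calretinin, had 54.0, 63.8 and 59.8 FPKM in sham and 18.2, 7.89 and 19.6 in pIONT. Pvalb, parvalbumin, had 63.9, 67.5 and 62.4 FPKM in sham and 21.98, 17.9 and 35.2 in pIONT, -1.41 as log2 fold change (SE 0.22; limma, adjusted p = 0.00618). Mafa, a transcription factor of touch neurons, had 19.5, 20.4 and 22.6 FPKM in sham and 9.71, 7.64 and 10.9 in pIONT (-1.11, limma adjusted p = 0.0019). In all 3 genes every pIONT library was below every sham library, and pIONT 2 was the lowest. Esrrg, a nuclear receptor, fell by 0.87 (limma adjusted p = 0.00543). The gene of this class that rose was Spp1, osteopontin, which macrophages make as well, with means of 79.2 and 130 FPKM. The count of lower genes was 10 without sham 3 and 14 without sham 1 and pIONT 2.

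Small-diameter neurons carry pain, itch, cold and slow touch, and their lists differed in the share of calls, with no test between them. Of 11 tested peptidergic nociceptor genes 2 rose (Adcyap1 and Gfra3) and 3 fell, among them Prdm12 and, chosen after its values were seen, Calcb. Of 20 tested genes of non-peptidergic nociceptors and itch neurons 6 fell and 2 rose. Mrgprd, a receptor that marks non-peptidergic nociceptors, fell by 0.43 (limma adjusted p = 0.032). Lgals1, a galectin, rose from 183 ± 7.87 to 398 ± 52.4 FPKM and the serotonin receptor Htr1f from 1.11 ± 0.157 to 1.98 ± 0.187 (SD, n = 3). Without any 1 library 1 to 3 of the non-peptidergic genes were lower, so this count rested on all 6 libraries together. Of 7 tested genes of C-fibre touch and cold neurons 5 fell, with 1 to 3 lower without any 1 library. Trpm8, the cold and menthol receptor, had 33.9, 36.0 and 38.1 FPKM in sham and 18.2, 12.5 and 19.7 in pIONT (log2 fold change -1.10, limma adjusted p = 0.00472). Of its exon bases 8.20% also belong to an antisense gene. The capsaicin receptor Trpv1, chosen after its values were seen, did not pass, at means of 18.2 and 19.0 FPKM.

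Potassium channels, which return the membrane to rest and damp firing, held the longest list of decreases among ion channels. Of 58 tested pore subunits 32 fell and 3 rose, with a median of -0.30, and of 11 tested auxiliary subunits 5 fell. Kcnk1, a background channel of the tandem-pore family, had 44.9, 45.8 and 47.2 FPKM in sham and 26.9, 21.2 and 29.4 in pIONT. Kcng4, a silent modifier subunit, fell by 0.81 (limma adjusted p = 0.00163). Sham libraries lay within a few units of each other for these genes and pIONT 2 was the lowest of its group. Of the increases, Kcnk16, a tandem-pore channel known from pancreatic islets, came from 3 reads over the sham libraries to 368 over the pIONT libraries, a ratio of read rates of 117 (95% exact interval 39.6 to 568, counting error only). Kcnk16 passed the filter only through its pIONT level. The other increases were Kcnh3 at 0.58 and the large-conductance calcium-activated channel Kcnma1 at 0.21, both chosen after their values were seen. Among auxiliary subunits Kcnip1, Kcnip2 and Kcnab2 fell by 0.47, 0.46 and 0.46 (limma adjusted p = 0.00496 to 0.0116). Without sham 3 the counts of lower pore and auxiliary subunits were 16 and 2, and without sham 1 and pIONT 2 they were 20 and 3.

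Sodium channel subunits, which carry the upstroke of the action potential, followed the same direction at smaller size. Of 18 tested 9 fell and 1 rose. Scn1a, the Nav1.1 pore of myelinated fibres, had 16.3, 14.7 and 15.2 FPKM in sham and 9.56, 8.26 and 11.4 in pIONT, -0.65 as log2 fold change (SE 0.11; limma, adjusted p = 0.00781). Fgf12, an intracellular factor that binds sodium channels, fell by 0.46, while Fgf11 of the same family rose from 4.19 ± 0.298 to 11.2 ± 1.36 FPKM (± SD of 3 libraries; limma adjusted p = 0.000285). The nociceptor channels differed in their calls, with Scn10a (Nav1.8) called at -0.42 and Scn9a (Nav1.7) not called at -0.14, both chosen after their values were seen and with no test of the difference. The count of lower sodium channel genes was 5 without sham 3 and 6 without sham 1 and pIONT 2.

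Of 17 tested calcium channel subunits 6 fell (35.3%) and 2 rose (11.8%, near the background of 10.5%). Cacna2d1, the alpha2delta subunit bound by gabapentin, had 8.62, 9.15 and 8.34 FPKM in sham and 34.2, 38.1 and 33.7 in pIONT. It lies on chromosome 5 at 16139689 to 16579509, and its log2 fold change was 1.96 (SE 0.06, limma adjusted p = 9.67e-06). Cacna2d2, a second alpha2delta subunit, moved the other way, at 16.1, 16.5 and 16.9 FPKM in sham and 12.02, 10.48 and 12.96 in pIONT (-0.47, limma adjusted p = 0.00687). Cacng2 and Cacnb2 fell by 0.55 and 0.45 (limma adjusted p = 0.0384 and 0.0332). Cacnb2 passed the filter only through its sham level. The other increase was Cacng5 at 0.39, chosen after its values were seen. The counts of lower calcium channel genes were 3, 2 and 1 without sham 1, sham 2 and sham 3, while 2 genes were higher in each case.

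Among 24 tested channels of the HCN, TRP, Piezo, acid-sensing and anoctamin families 8 fell and 1, Trpv2 at 0.36 and chosen after its values were seen, rose. Hcn2, a pacemaker channel, had 45.2, 45.5 and 49.0 FPKM in sham and 29.7, 21.6 and 30.7 in pIONT (log2 fold change -0.77, limma adjusted p = 0.00768). The anoctamin Ano3 fell by 0.49 and Trpm2, a channel gated by oxidative stress, by 0.51. The counts of lower genes were 5, 5, 4 and 3 without pIONT 2, sham 1, sham 2 and sham 3.

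Receptors for transmitters and peptides were mostly on the falling side as well. Of 30 tested subunits of GABA, glycine and glutamate receptors 13 fell and 2 rose, with a median of -0.23. Gabrb2, a subunit of the GABA-A receptor, fell by 0.73, while Gabrg1, another subunit of it, rose from 5.41 ± 0.168 to 9.07 ± 0.418 FPKM (± SD of 3 libraries; limma adjusted p = 0.000354). The kainate receptor subunit Grik3 rose by 0.73 (limma adjusted p = 0.000232). The counts of lower subunits were 8 and 7 without sham 2 and sham 3.

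Of 14 tested purine receptors 3 rose and 5 fell. The 3 that rose were P2ry13, P2ry6 and P2ry12 at 1.15, 0.81 and 0.69, and those that fell were led by the ion channel P2rx6 at -0.47. Without pIONT 1, sham 2 or sham 3 the count of higher purine receptors was 1, and that of lower ones was 2 without pIONT 2 or sham 3 and 3 without pIONT 1, pIONT 3 or sham 1. P2ry13 had 1.11, 0.358 and 0.344 FPKM in sham, with sham 1 high, and 1.61, 2.44 and 1.54 in pIONT. Of 15 tested receptors for opioids, galanin, NPY, somatostatin, CRF and related peptides 6 fell and 2 rose. The PACAP receptor Adcyap1r1 fell from 1.75 ± 0.222 to 0.858 ± 0.183 FPKM, the opposite of its ligand gene Adcyap1, and the nociceptin receptor Oprl1 fell from 9.21 ± 0.378 to 5.97 ± 1.29 (± SD of 3 libraries; limma adjusted p = 0.00929 and 0.0186). The increases were Cckbr and Npy2r, a receptor of NPY at 0.51 and chosen after its values were seen. The count of lower receptors was 2 without sham 1 or sham 3 and 3 without pIONT 1.

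Transmitter release followed. Of 38 tested genes of synaptic vesicles and release 17 fell and 5 rose, with a median of -0.17. Vamp1, a vesicle SNARE of sensory terminals, had 89.4, 95.4 and 93.9 FPKM in sham and 54.4, 44.0 and 59.5 in pIONT (log2 fold change -0.82, limma adjusted p = 0.00326). Syt3, a calcium sensor, fell by 0.86 (limma adjusted p = 0.0118). The serotonin transporter Slc6a4, which passed the filter only through its pIONT level, was at 0.0805, 0.107 and 0.192 FPKM in sham and 18.5, 23.4 and 16.8 in pIONT. Doc2b, a calcium sensor for spontaneous release that passed the filter only through its pIONT level, went from 0.188 ± 0.0183 to 0.824 ± 0.116 FPKM (± SD of 3 libraries; limma adjusted p = 0.00262). The other increases included Syt4 at 0.68 and Sncb at 0.29, chosen after their values were seen. The counts of lower genes were 11, 8 and 8 without sham 1, sham 2 and sham 3, and 10 without sham 1 and pIONT 2.

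Calcium-binding proteins and sensors gave 14 decreases and 5 increases among 31 tested genes. The decreases were led by Calb2 and Pvalb, and Hpca, hippocalcin, fell by 0.93 (limma adjusted p = 0.00539). The increases were led by S100a11, with 51.8, 43.3 and 46.5 FPKM in sham and 219, 265 and 189 in pIONT (log2 fold change 2.23, limma adjusted p = 9.8e-05), the kinase Camk1 at 1.41 and S100a10 at 1.03. S100a13 at 0.38 and Camk2d at 0.29 were the others, chosen after their values were seen. Without sham 3 the count of lower genes was 9.

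Axon guidance genes showed no common direction. Of 65 tested ligands and receptors 12 rose and 14 fell, with a median of -0.02, the same as over all genes. The semaphorins moved apart. Sema6a had 1.81, 1.92 and 2.10 FPKM in sham and 14.3, 14.3 and 12.1 in pIONT, 2.52 as log2 fold change (SE 0.08; limma, adjusted p = 9.96e-06). Sema4f rose by 0.93 (limma adjusted p = 0.000308), while Sema7a, a membrane-anchored semaphorin, had 44.9, 52.4 and 51.6 FPKM in sham and 26.8, 20.5 and 28.2 in pIONT (-0.98, limma adjusted p = 0.00326). The netrin relative Ntng1 fell by 0.69. The count of higher genes was 7 without pIONT 1, pIONT 2 or sham 2, and that of lower genes was 9, 9, 8 and 7 without pIONT 1, sham 1, sham 2 and sham 3.

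**Figure D3:**
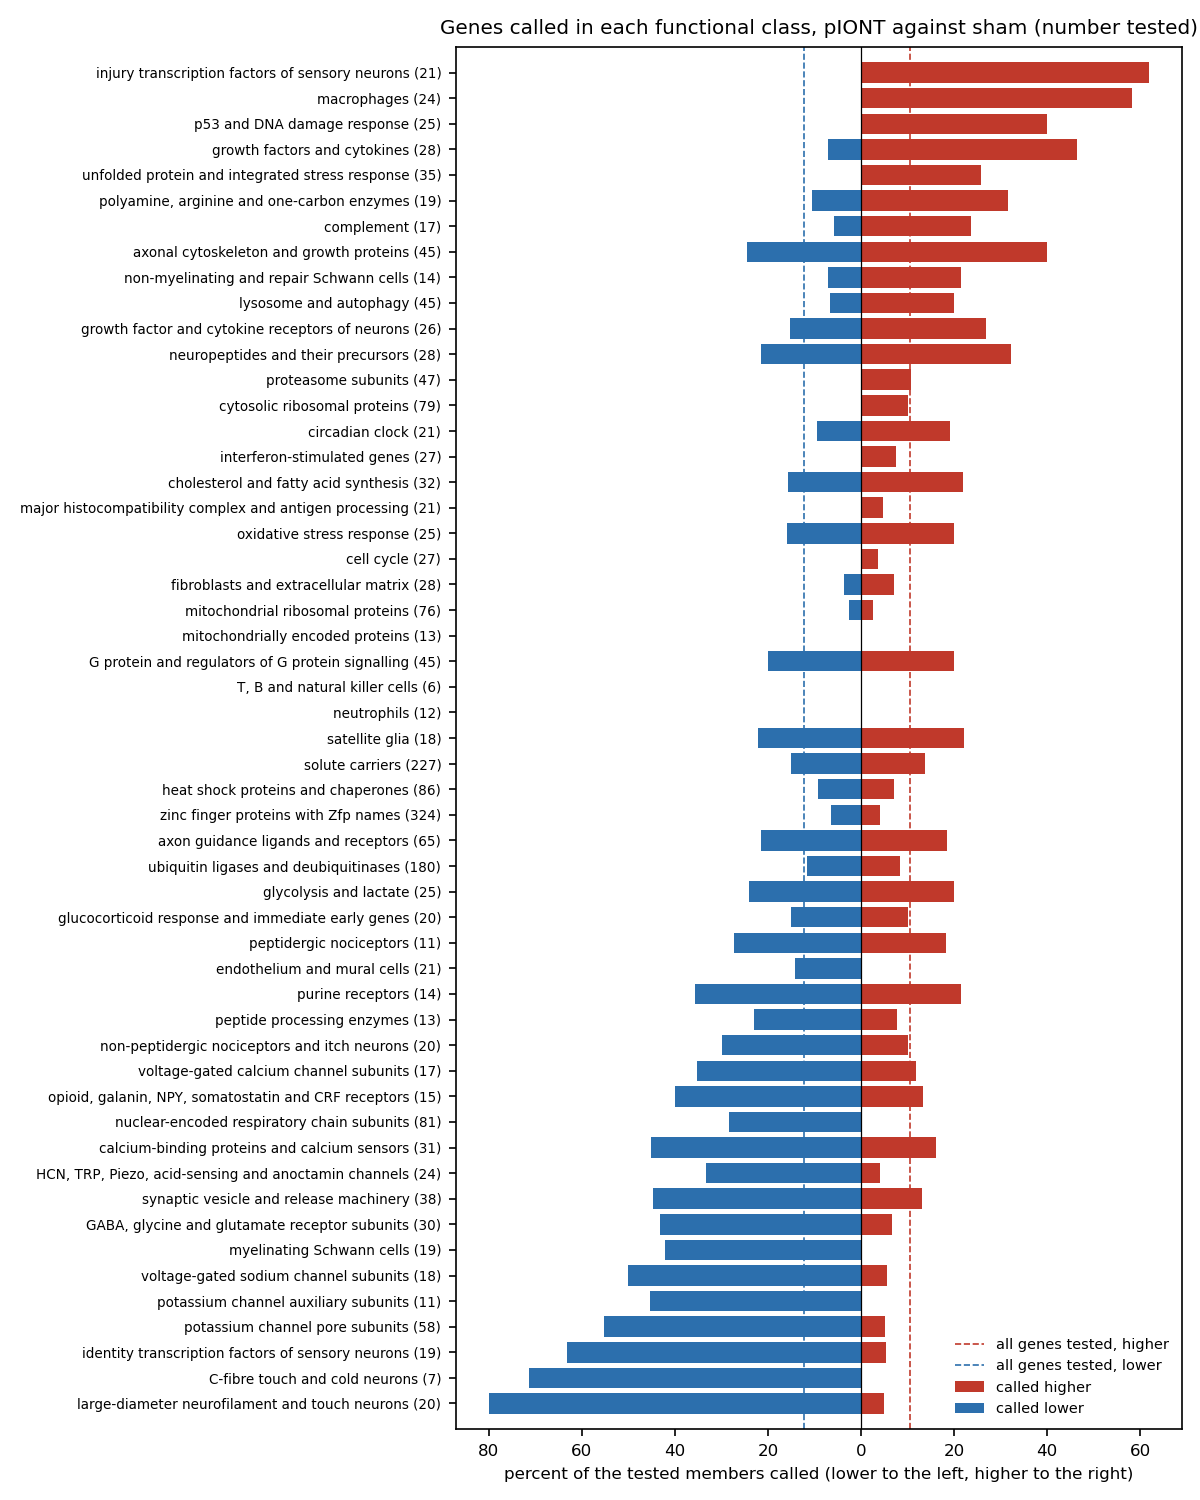
Percent of tested members called higher (red, to the right) and lower (blue, to the left) in each class, with the number tested in parentheses and dashed lines at the shares over all genes tested, 10.5% and 12.3%. Injury transcription factors and macrophage genes stand at the top, and large-diameter neurons, cold and touch neurons, identity factors and potassium channels at the bottom.

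Schwann cell genes of myelin were lower by small amounts. Of 19 tested 8 fell and 0 rose, with a median of -0.23, and leaving out any 1 library left 6 to 10 lower. Mog, an oligodendrocyte gene chosen after its values were seen, had 2.68, 0.0817 and 0.195 FPKM in sham 1 to 3 and 0.159 to 0.201 in pIONT. Without sham 1 the median of the myelin class was -0.17 and 6 were lower. The part of oligodendrocyte RNA in sham 1 was not tested. Mbp, myelin basic protein, had 505, 442 and 476 FPKM in sham and 345, 338 and 371 in pIONT. Fa2h and Ugt8a, enzymes of myelin lipids, both fell by 0.45 (limma adjusted p = 0.00326 and 0.00687). Pmp22 fell from 1278 ± 8.99 to 1007 ± 28.9 FPKM (± SD of 3 libraries; limma adjusted p = 0.00526). Of 14 tested genes of repair and non-myelinating Schwann cells 3 rose and 1 fell. Gap43, which neurons express as well, was the largest, with the adhesion molecules Ncam1 at 0.32 and Cdh2 at 0.19, and S100b fell by 0.32. The call of Cdh2 was lost without sham 1 or pIONT 2 (limma adjusted p = 0.104 and 0.0857), among others, and held in 8 of 17 alternatives, and without sham 3 the count of lower genes was 0.

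Of 18 tested satellite glia genes 4 rose and 4 fell. Glul, glutamine synthetase, which clears glutamate around the neuron, had 115, 115 and 113 FPKM in sham and 142, 144 and 140 in pIONT (log2 fold change 0.31, limma adjusted p = 0.00218). It was among the tightest changes, with libraries of a group within a few units. Aldoc, an aldolase of glia, fell from 50.3 ± 4.35 to 34.6 ± 3.76 FPKM and the matrix proteoglycan Bcan from 48.4 ± 1.80 to 36.8 ± 5.39 (± SD of 3 libraries; limma adjusted p = 0.00948 and 0.0282). Vim, vimentin, rose by 0.46, a call lost without any of sham 1, sham 2, sham 3, pIONT 1 or pIONT 2, with a log2 fold change of 0.32 without pIONT 2. The others were Ednrb at 0.28, Cdh19 at 0.16, Sparcl1 at -0.27 and Fbln2 at -0.22, chosen after their values were seen. Without any 1 library 1 to 3 were higher and 1 to 3 lower.

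Macrophage genes were higher with a wide spread. Of 24 tested 14 rose and 0 fell, with a median of 0.98. Ctss, a lysosomal protease of myeloid cells, had 29.5, 11.3 and 15.2 FPKM in sham and 53.1, 128 and 48.7 in pIONT (log2 fold change 1.97, SE 0.45, limma adjusted p = 0.0221). Mpeg1, a pore-forming protein of macrophages, had 6.85, 2.85 and 3.90 FPKM in sham and 12.7, 28.2 and 10.3 in pIONT. Sham 1 was the highest sham library and pIONT 2 the highest pIONT library in both, and the groups did not overlap. Over the 24 genes the median difference from the sham mean was 0.37, -0.33 and -0.15 in sham 1 to 3 and 0.73, 1.41 and 0.64 in pIONT 1 to 3. The count of higher genes was 2 without sham 2 or sham 3, 5 without pIONT 1, 6 without pIONT 2, 15 without sham 1 and 17 without sham 1 and pIONT 2. Of 17 tested complement genes 4 rose, which were C1qa, C1qb and C1qc at 1.19, 1.20 and 1.17 and the inhibitor Cd59a at 0.45, and Cd55, also an inhibitor and chosen after its values were seen, was called at -0.36. The 3 C1q genes are made by macrophages and are also members of the macrophage class. Of the complement increases only Cd59a is therefore not already counted there. C1qa stood at 59.8 FPKM in sham 1 against 30.1 and 31.8 in sham 2 and sham 3. The count of higher complement genes was 8 without sham 1 and 1 without pIONT 1, pIONT 2, sham 2 or sham 3.

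Interferon-stimulated and antigen-presentation genes gave few calls. Of 27 tested interferon-stimulated genes Mx1, an antiviral GTPase, rose by 1.18 and Ifit2 by 0.62 (limma adjusted p = 0.00898 and 0.0444), while 24 of 27 had a positive fold change. Without sham 1, which was the highest library of the class at a median of 0.63 above the sham mean, 9 were called higher, and without pIONT 2, pIONT 3, sham 2 or sham 3 it was 1. The part of sham 1 in this result was not tested. H2-Eb1, a class II gene of antigen-presenting cells, was the called gene of 21 tested, with 1.76, 1.31 and 0.981 FPKM in sham and 6.24, 4.18 and 4.17 in pIONT (1.53, limma adjusted p = 0.00331). The median of that class was 0.02, and it was below 0 on the TPM scale. Neutrophil genes (12 tested) and T, B and natural killer cell genes (6 tested) gave 0 calls in limma. S100a9, a neutrophil protein, ranged from 13.4 to 126 FPKM among sham libraries and from 8.15 to 47.7 among pIONT libraries, so spread within groups covered any difference.

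Matrix and vessel genes gave few calls too. Of 28 tested fibroblast and matrix genes Loxl2 and Timp1 rose and Mfap5 fell by 0.49, with 25 of 28 above 0. Timp1, an inhibitor of matrix proteases, had 1.89, 0.744 and 1.82 FPKM in sham and 3.22, 11.4 and 4.18 in pIONT, and its call was lost without any 1 library other than pIONT 1, with a log2 fold change of 1.13 without pIONT 2. The class median was 0.98 above the sham mean in pIONT 2 against 0.25 and 0.08 in pIONT 1 and pIONT 3, and the part of pIONT 2 was not tested. The counts of higher matrix genes were 1 without sham 2 or sham 3 and 4 without sham 1 and pIONT 2. Of 21 tested endothelial and mural genes 3 fell (14.3%, near the background of 12.3%). These falls were small, Pecam1 by 0.24, Ly6c1 by 0.20 and Slco1a4 by 0.39. Without sham 1 or pIONT 1 the count was 1, and without sham 2 it was 0.

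**Figure D4:**
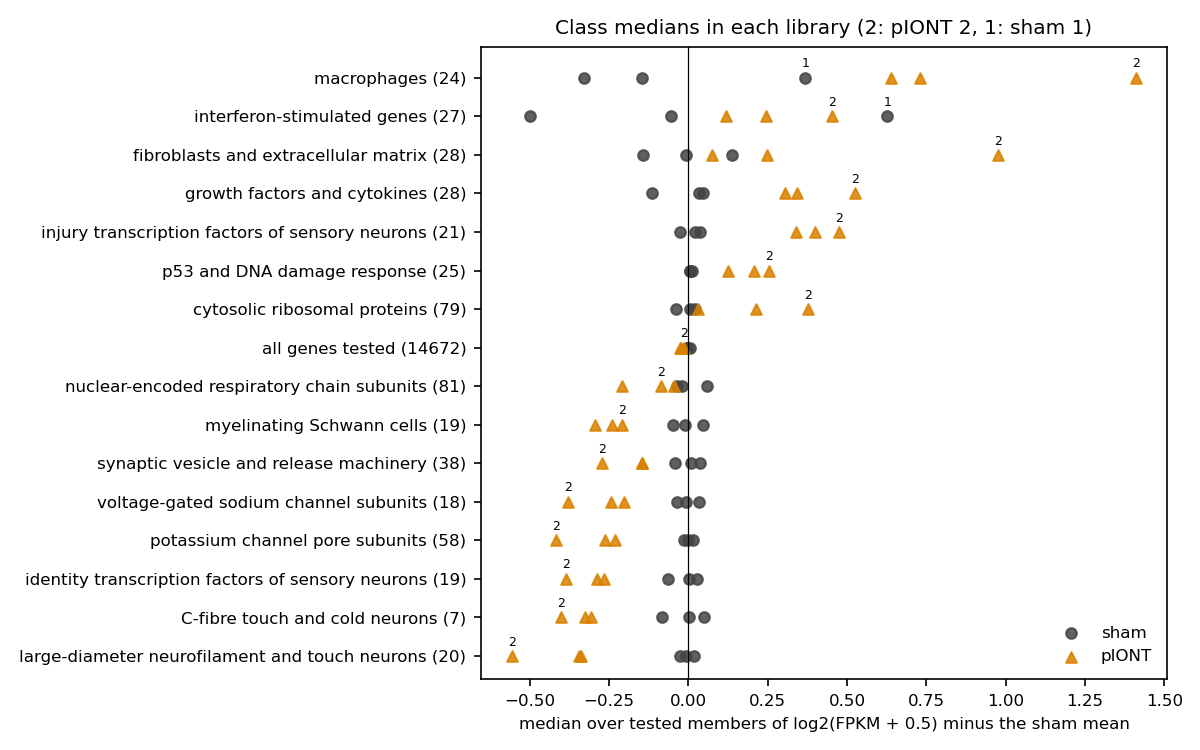
Median over the tested members of each class of log2(FPKM + 0.5) minus the sham mean (horizontal axis) for each library, sham as circles and pIONT as triangles, with pIONT 2 marked 2 and, in the 2 classes where it is marked, sham 1 marked 1. In macrophages sham 1 lies at 0.37 and pIONT 2 at 1.41, and in large-diameter neurons and potassium channels pIONT 2 is the lowest while sham libraries lie near 0.

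Protein synthesis and energy supply were described next. Of 79 tested cytosolic ribosomal proteins 8 rose (10.1%, near the background of 10.5%) and 0 fell, while the median log2 fold change was 0.20. Rpl39 had 29.7, 30.7 and 30.3 FPKM in sham and 37.0, 45.7 and 41.5 in pIONT (log2 fold change 0.44, limma adjusted p = 0.00792). Rps4x rose by 0.31 and Rpl12 by 0.35, and Rpl35, at 0.63, shares 66.2% of its exon bases with a gene on the other strand. pIONT 1 lay at a class median of 0.03 above the sham mean against 0.38 and 0.21 in pIONT 2 and pIONT 3, and without pIONT 1 the count of higher genes was 47. It was 4 without pIONT 3 and 2 without sham 1, sham 2 or sham 3.

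Of 81 tested nuclear genes of the respiratory chain 23 fell and 0 rose, with a median of -0.13. Sdha, the succinate dehydrogenase subunit, had 86.9, 88.4 and 85.2 FPKM in sham and 71.8, 66.9 and 72.0 in pIONT (log2 fold change -0.30, limma adjusted p = 0.0049). Uqcrc2 of complex III fell by 0.30, Ndufb5 of complex I by 0.34 and the cytochrome oxidase isoform Cox4i2 by 0.47. This count moved with the settings. It was 28 on the TPM scale and 13 with median-of-ratios scaling, and 6, 7, 9, 8 and 5 without pIONT 1, pIONT 2, sham 1, sham 2 and sham 3. The 13 proteins encoded in mitochondrial DNA gave 0 calls in limma, and mt-Co1 stood at 6201 ± 207 and 6286 ± 298 FPKM (SD, n = 3). Mitochondrial ribosomal proteins gave 2 higher and 2 lower of 76 tested, and 14 lower on the TPM scale.

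In glucose use, Ldhb, the lactate dehydrogenase subunit that favours pyruvate, had 421, 443 and 426 FPKM in sham and 272, 244 and 307 in pIONT (log2 fold change -0.65, limma adjusted p = 0.00331). Pfkm, the muscle-type phosphofructokinase, fell by 0.37 and Pfkfb3, an activator of glycolysis, rose by 0.42 (limma adjusted p = 0.0133 and 0.00375). Of 25 tested glycolysis and lactate genes 5 rose and 6 fell. The counts were 3 higher without pIONT 1, pIONT 2, pIONT 3 or sham 1, and 2 higher and 2 lower without sham 3.

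Stress classes rose in part. Of 25 tested p53 and DNA damage response genes 10 rose and 0 fell, a median of 0.23, and leaving out any 1 library left 7 to 11. Gadd45a had 9.00, 6.92 and 7.15 FPKM in sham and 47.2, 60.1 and 42.2 in pIONT (log2 fold change 2.61, limma adjusted p = 9.65e-05), with 19.1% of its exon bases in a gene on the opposite strand. Gadd45g of the same family rose by 1.56, the apoptosis gene Pmaip1 by 0.78 and the cell cycle inhibitor Cdkn1a by 0.70 (limma adjusted p = 0.000373 to 0.0041). Of 27 tested cell cycle genes Cdkn1a was the one called. The median of that class lay 0.53 above the sham mean in pIONT 2 against -0.02 and -0.01 in pIONT 1 and pIONT 3.

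Of 35 tested genes of the unfolded protein and integrated stress response 9 rose and 0 fell. Chac1, a glutathione-degrading target of ATF4, had 2.74, 3.34 and 2.94 FPKM in sham and 5.97, 6.83 and 6.66 in pIONT (log2 fold change 1.00, limma adjusted p = 0.000518). The others were small, with Trib3 at 0.52, Sdf2l1 at 0.36 and Atf5 at 0.34. The counts were 4, 3, 4, 3 and 2 without pIONT 1, pIONT 2, sham 1, sham 2 and sham 3, and 5 on the TPM scale. Heat shock proteins and chaperones gave 6 higher and 8 lower of 86 tested, shares near or below the background. Hspb1, a small heat shock protein of neurons, had 195, 197 and 194 FPKM in sham and 330, 369 and 305 in pIONT. The co-chaperone Fkbp4 moved the other way, at 200.3, 204 and 197 FPKM in sham and 138, 116 and 141 in pIONT (-0.61, limma adjusted p = 0.00308). The counts were 2 and 2 without sham 1 or sham 3, 4 and 13 on the TPM scale and 9 and 5 with median-of-ratios scaling.

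Of 25 tested oxidative stress genes 5 rose and 4 fell. Srxn1, sulfiredoxin, had 94.3, 87.3 and 101 FPKM in sham and 261, 258 and 211 in pIONT (log2 fold change 1.36, limma adjusted p = 0.000254), and the peroxidase Prdx6 rose by 0.40. Nqo1, like Srxn1 a known NRF2 target, fell by 0.39 (limma adjusted p = 0.0103). The counts of lower genes were 2 without pIONT 1, pIONT 2, sham 2 or sham 3. Of 45 tested lysosome and autophagy genes 9 rose and 3 fell. The cathepsins Ctsz and Ctsb rose by 0.48 and 0.45 and the membrane protein Cd63 by 0.98, highest in pIONT 2 at 76.1 FPKM against 53.8 and 51.7. The count of higher genes was 4 without sham 2 or sham 3 and 14 with median-of-ratios scaling, and that of lower genes was 0 without pIONT 3, sham 2 or sham 3 and 1 without pIONT 2. Of 47 tested proteasome subunits 5 rose (10.6%, near the background of 10.5%), by 0.14 to 0.24, with Psma1 at 0.14 chosen after its values were seen. The median of the subunits was 0.01, and it was -0.03 on the TPM scale, where 2 were higher and 1 lower. Without any 1 library 2 to 4 were higher.

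Metabolic and regulatory classes held single strong movers. Hsd17b7, an enzyme late in cholesterol synthesis on chromosome 1 at 169777104 to 169796810, had 7.96, 8.07 and 7.23 FPKM in sham and 40.5, 40.1 and 41.5 in pIONT. Its log2 fold change was 2.32 (SE 0.05, limma adjusted p = 1.49e-06), with libraries of a group nearly equal. The other genes of cholesterol and fatty acid synthesis did not follow it. Of 32 tested 7 rose and 5 fell, the next largest increase being Ebp at 0.33, and Lss, which closes the sterol rings, fell by 0.32 and Elovl6 by 0.34. Without any 1 library 3 to 6 were higher and 2 to 5 lower, with the fewest higher without sham 3, and 4 were higher on the TPM scale. Of 19 tested genes of polyamine, arginine and one-carbon metabolism 6 rose and 2 fell (10.5% lower, near the background of 12.3%). Arg2, an arginase, had 4.45, 5.07 and 3.72 FPKM in sham and 7.67, 7.68 and 8.59 in pIONT (0.80, limma adjusted p = 0.00372), with 19.96% of its exon bases in a gene on the opposite strand. Odc1, the first enzyme of polyamine synthesis, rose by 0.51 and its antizyme inhibitor Azin1 by 0.28. Without pIONT 2 or sham 3 the count of higher genes was 3, and that of lower genes was 1 without pIONT 1 and 0 without any other library.

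In the circadian clock class 4 of 21 rose, among them Nfil3, the repressor Bhlhe41 from 4.38 ± 0.243 to 9.21 ± 0.597 FPKM (± SD of 3 libraries; limma adjusted p = 0.000187) and Csnk1e. The 2 lower genes (9.52%, near the background of 12.3%), Nr1d2 at -0.41 and Tef at -0.21, were chosen after their values were seen. Their count was 0 without pIONT 1, sham 1, sham 2 or sham 3 and 1 without pIONT 2. Of 20 tested glucocorticoid-responsive and immediate early genes 2 rose and 3 fell. The synaptic gene Arc rose by 0.66 and the phosphatase Dusp1 by 0.42, while the kinase Sgk1 fell by 0.45 and Tsc22d3 by 0.28, with Nr3c2, the mineralocorticoid receptor, at -0.27 chosen after its values were seen. The count of lower genes of this class was 1 without sham 3, and 1 with a replicate block. Time of day at dissection is not given in the labels.

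The large families were counted in the same way. Of 227 tested solute carriers 31 rose and 34 fell, near the background. Slc6a19, an amino acid transporter, went from 2.69 ± 0.299 to 5.98 ± 0.601 FPKM (± SD of 3 libraries; limma adjusted p = 0.000908), Slc37a1 rose by 1.07 and the mitochondrial carrier Slc25a24 by 0.99. Of 180 tested ubiquitin ligases and deubiquitinases 15 rose (8.33%) and 21 fell (11.7%), near or below the background. Fbxo40, an F-box protein known from muscle, had 3.97, 3.68 and 3.48 FPKM in sham and 1.62, 0.982 and 1.52 in pIONT (-1.18, limma adjusted p = 0.00243). Trim15, which passed the filter only through its pIONT level, rose by 1.06. Zinc finger genes with Zfp names gave 13 higher and 21 lower of 324, below the background in both directions, with no matching for level. Zfp365 fell by 0.82 and Zfp367 rose by 0.89 (limma adjusted p = 0.0109 and 0.000541). Of 45 tested G protein and RGS genes 9 rose and 9 fell, a higher share than the background each way, among them Rgs20 at 1.21 and Rgs6 at -0.73 (limma adjusted p = 0.00317 and 0.00541). The smallest counts without 1 library were 16 and 16 for solute carriers, 5 and 8 for ubiquitin genes, 4 and 6 for zinc finger genes and 3 and 6 for G protein genes, of which all but that of 16 higher solute carriers, without pIONT 1, were without sham 3.

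Beyond the classes, the 20 largest decreases held further genes of neuronal signalling. Clec2l, a C-type lectin of neurons, had 104, 113 and 111 FPKM in sham and 53.2, 38.9 and 66.7 in pIONT (log2 fold change -1.07, limma adjusted p = 0.00718). Inpp5j, an inositol phosphatase, had 25.6, 27.1 and 28.5 FPKM in sham and 14.72, 11.045 and 14.70 in pIONT (-0.99, limma adjusted p = 0.002). Oxtr, the oxytocin receptor, had 4.43, 4.60 and 4.96 FPKM in sham and 1.93, 1.85 and 2.62 in pIONT (-0.98, limma adjusted p = 0.00224). Libraries of the groups were separate in each of these genes. Vstm2b, Plcd4, Abca6 and Tent5b fell by 1.05, 1.03, 0.97 and 0.96 (limma adjusted p = 0.00311 to 0.00537), and Plcd4 shares 29.8% of its exon bases with a gene on the opposite strand. pIONT 2 was the lowest library in 20 of the 20 largest decreases and the highest in 16 of the 20 largest increases.

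The weight of these changes in the transcript pool was described with TPM, which scales the values of each library to the same total. Genes called higher held 14.2% of transcripts in sham and 20.3% in pIONT, and genes called lower held 19.3% and 14.8%, a description without a test because the calls chose the genes. The 10 largest gains carried 31.5% of the summed gain. They were Gal, Tubb3, Tuba1a, Sprr1a, the thymosins Tmsb4x and Tmsb10, Tubb2a, Gap43, S100a10 and Stmn2. Gal alone went from 40.2 to 3976 TPM and Tubb3 from 4398 to 7917 TPM. The 10 largest losses carried 18.9% of the summed loss and included the myelin genes Pmp22 and Mbp, the neurofilaments Nefm, Nefh and Nefl, Ldhb, the proteoglycan Spock2 and Fstl1.

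Per class, neuropeptides went from 0.546 ± 0.00835% to 1.03 ± 0.127% of transcripts and axonal cytoskeleton and growth proteins from 3.95 ± 0.115% to 5.02 ± 0.152% (SD, n = 3). Gal alone gained 3936 TPM, the larger part of the neuropeptide gain, and 12 of the 28 tested neuropeptide genes had a fold change below 0. Large-diameter neuron genes went from 1.35 ± 0.0603% to 1.01 ± 0.0642%, myelinating Schwann cell genes from 2.06 ± 0.115% to 1.62 ± 0.0474% and potassium channel pore subunits from 0.243 ± 0.00424% to 0.181 ± 0.0149%. Macrophage genes were at 0.159%, 0.0938% and 0.110% in sham 1 to 3 and 0.206%, 0.395% and 0.182% in pIONT 1 to 3. In each of these 6 classes the sham and pIONT libraries were separate. An exact permutation test of 3 against 3 libraries, two-sided, cannot go below p = 0.1, which is the value it gave for each.

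**Figure D5:**
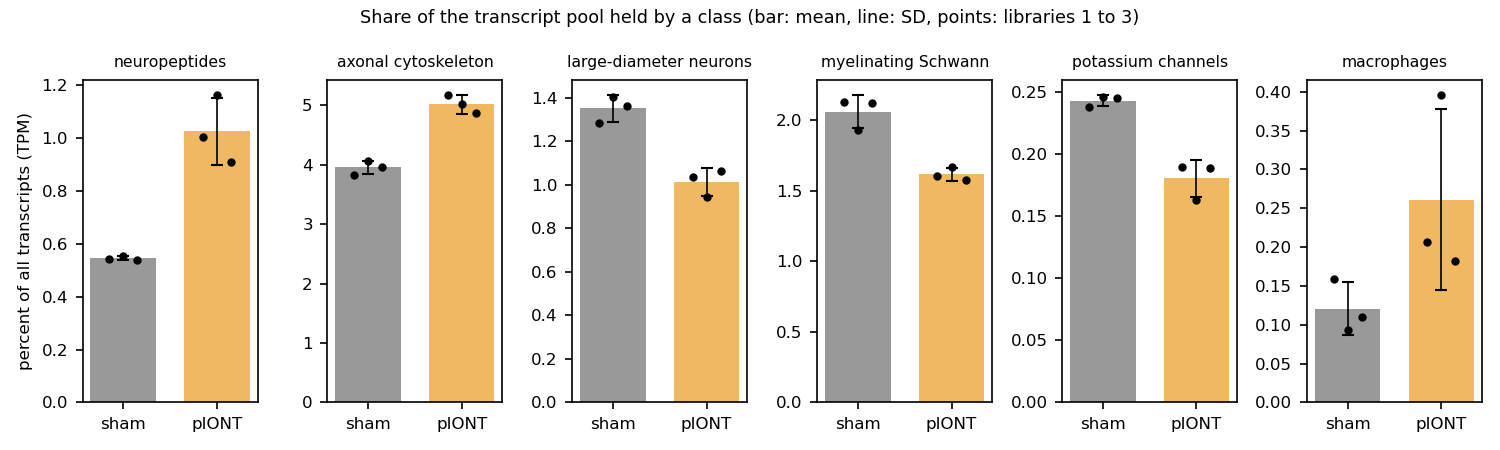
Percent of all transcripts (TPM, vertical axis starting at 0, each panel with its own scale) held by 6 classes in sham and pIONT, with bars at the mean of 3 libraries, lines for the SD and points for libraries 1 to 3. Neuropeptides and cytoskeletal genes gained share, large-diameter neuron, myelin and potassium channel genes lost share, and pIONT 2 is the high point of macrophages at 0.395%.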

How the data were processed

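The authors deposited 1 table of FPKM values for the 6 libraries, reads per kilobase of gene and depth. Total RNA was taken up with TRIzol and made into libraries with the NEBNext Ultra II RNA kit, per the labels' protocols. STAR, HTSeq and DESeq2 and the build GRCm39 appear, per the submitters' processing notes, without versions or roles, and no source used here states strand use. Low FPKM values fell on whole-read steps for 92.3% to 92.7% of values (up to 20 reads, tolerance 0.1 read), which gave depths of 24.2 to 29.7 M reads. Read intervals cover counting error only.

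Genes with a mean of at least 0.5 FPKM were tested on log2(FPKM + 0.5) with limma 3.58.1 in R 4.3.3, with a mean-variance trend and Benjamini-Hochberg adjustment over 14672 genes, called at 0.05. On simulated data of 14146 genes, 95 of 100 2-fold and 34 of 100 1.5-fold changes were recovered with 13 false calls. The spread between simulated libraries was a set value, not an estimate from these data. Named genes were the 20 largest called changes each way (no overlap, and 1 FPKM or more on average in either group), the 10 largest TPM gains and losses, up to 4 called members of each class or 2 of highest level where none was called, 5 long noncoding RNAs, and Ucn, Hspb1, Atf3 and Sprr1a. Gm and Rik genes were passed over elsewhere. The members and lists were chosen with earlier results of these data known. Symbols came from GENCODE vM21 for 25166 of 26411 identifiers. Same-numbered libraries did not deviate together (correlations -0.0551, -0.202 and 0.0676), but deviations from means of 3 libraries cannot exclude pairing by number. Alternatives were other pseudocounts, filters, scalings and limma settings, a replicate block and each library left out. A further table, of an injection experiment, was not used here. Some genes that this rule names are not reported here.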

Additional observations from a re-analysis of the deposited data

How the results depend on the processing

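The numbers of genes called moved with the libraries. Leaving out 1 library in turn gave 912 to 1397 genes called higher and 757 to 1581 genes called lower, and leaving out sham 1 and pIONT 2, an alternative chosen after seeing the data, gave 902 higher and 758 lower. With a replicate block, which pairs libraries by number, 1053 were higher and 1032 lower. Higher genes made up 46.0% of calls, 36.6% on the TPM scale, 54.8% with median-of-ratios scaling and 52.1% without a filter, so the balance of directions depends on scaling. The median of all genes was -0.02, and -0.06 on the TPM scale. Of 221 named genes that were called, 153 stayed called in every alternative run, and none of the 221 changed sign in any of them. Most simulated 1.5-fold changes were missed, but the simulation used a set spread and changed far fewer genes than were called here. Of genes called here, 65.5% of those higher and 87.2% of those lower changed by under 1.5-fold. The simulation therefore does not measure recovery in these libraries.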

Other observations

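Long noncoding RNAs were called as 53 higher (5.0%) and 80 lower (7.55%) of 1060 tested, beside 12.8% lower of 13367 protein-coding genes. The difference was not tested and the sets were not matched for level. Gm29374 had 0.136, 0.0260 and 0 FPKM in sham and 5.58, 6.35 and 4.76 in pIONT, a log2 fold change of 3.45 (limma adjusted p = 2.2e-05). Gm47903 had 0 reads in the 3 sham libraries and 186 over the pIONT libraries, a rate at least 58.9-fold higher against a floor of 3 reads over the group. Gm29374 and Gm47903 passed the filter only through their pIONT level. Gm47595 and Gm47593 rose by 2.61 and 2.00, with sham libraries spread from 0.529 to 2.66 and from 0.190 to 1.04 FPKM.

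Calls grew with level. Over 5 bins of equal size from low to high level, 11.3%, 18.0%, 22.9%, 25.9% and 35.8% were called, while the median SE fell from 0.124 to 0.0539 on the log2 scale.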
